A study of Mus musculus with 30 samples.

Results

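The genes described here are 10 genes that the liver switches on during fasting under the control of the nuclear receptor PPARA: the receptor gene Ppara itself, Cyp4a10, Cyp4a14, Acaa1b, Acot1, Acot3, Fgf21, Pdk4, Angptl4 and Vnn1. Every probe that the platform annotation assigns to one of them was taken, which gave 12 of the 24613 probes on the array. A probe was analysed when its detection p-value, which compares it with the negative control beads, was under 0.05 on at least 7 of the 30 arrays. That left 10 probes of 8 genes, among 10525 probes in all. The single probes of Acot1 and Vnn1 were above background on 0 of 30 arrays, with raw signals of 26.6 to 67.4 and 27.4 to 80.6 intensity units, so nothing can be said of changes in these genes.

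Liver RNA came from 14 germfree mice, which carry no microbes, and 16 conventional mice, which carry a gut microbiota. All 30 were C57BL/6J animals fed a high-fat diet for 11 weeks and killed after 10 h without food, so every liver was from a fasted, fat-fed mouse and no fed or chow-fed liver was compared. The labels separate the mice by their microbes alone; age, sex, cage and array batch were not given in the sources used here. Each liver was measured on its own Illumina single-colour array.

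PPARA is activated by fatty acids, which reach the liver from adipose tissue when food is withdrawn. It pairs with RXR on DNA elements made of repeated AGGTCA-like letters and turns on genes for omega-hydroxylation, peroxisomal and mitochondrial fatty acid oxidation, and hormones that signal the fasted state. Its target genes in rodent liver include the cytochrome P450 enzymes of the Cyp4a cluster, and they are widely used as a readout of receptor activity.

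Mean raw signal per array ran from 85.5 to 359 intensity units with group means of 245 ± 67.4 (SD, n = 16, conventional) and 247 ± 73.6 (SD, n = 14, germfree), a difference that did not pass (two-sided permutation p = 0.936). The number of arrays limits the precision. Of 9 probes for hepatocyte markers, 7 were detected in all 30 livers, namely Apoa1, Ttr, Trf, Serpina1a, Serpina1b, Ahsg and Asgr1; the Alb probe was detected on 4 arrays and the Fgb probe on 0. Conventional liver 5 stood apart. All 5 probes for skeletal muscle markers were detected in it, with Acta1 at 13.26 and Ckm at 9.33 on the log2 scale. Their summed linear signal was 15486 units in that liver against at most 462 in the other 29. Of 6 probes for adipocyte markers, 2 were detected in that liver. Adipoq was highest there, at 7.15 against at most 5.17 elsewhere, and so was Lipe, at 5.56 against at most 5.45. Fabp4 and Retn were not above background there, though they were on 1 and 4 other arrays. The probes for Plin1 and Lep were detected on 0 arrays. Results that rest on conventional liver 5 are given with and without it.

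In germfree liver, Cyp4a10 rose by 1 of its 2 probes and Acaa1b fell, while no probe of the other 6 measured genes passed. Across all probes tested, 603 of 10525 passed an adjusted p of 0.05 (limma with Benjamini-Hochberg adjustment), which is 5.73%; 3.28% were higher and 2.45% lower in germfree liver. Among the 10 member probes 1 was higher and 1 lower. The members' log2 changes, germfree minus conventional, had a median of 0.25 against -0.0010 over all probes, and 9 of the 10 were above 0 against 49.8% of all probes. An unadjusted p under 0.05 was found for 6 of 10 member probes and for 18.1% of all probes. Cyp4a10 and Angptl4 enter these counts with 2 probes each, so the 10 probes are not independent. With the brighter probe of each gene, 7 of 8 genes were above 0, and 0 passed higher and 1 lower. In whole liver, fewer cells of a type and less RNA per cell cannot be told apart. Of 8 tested Kupffer cell marker genes, Clec4f and C1qa fell in germfree liver and 6 did not pass. Of the 8 log2 changes 0 were above 0, with a median of -0.40. The summed signal of the 9 Kupffer marker probes ran from 769 to 1516 units in conventional and from 635 to 1137 in germfree livers. Its part in the members' changes was not tested. Among the 7 tested hepatocyte marker genes, Ahsg, which encodes the plasma protein fetuin-A, also rose (log2 change 0.27 ± 0.06, SE, limma adjusted p = 0.00615, 13 of 14 germfree livers above the conventional mean), and 6 did not pass. Trf had 0.23 (limma, adjusted p = 0.0525) and Asgr1 -0.13 (0.313), and the summed signal of the 9 hepatocyte marker probes ran from 134431 to 161216 units in conventional and from 141378 to 164536 in germfree livers; its part was not tested.

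**Figure D1:**
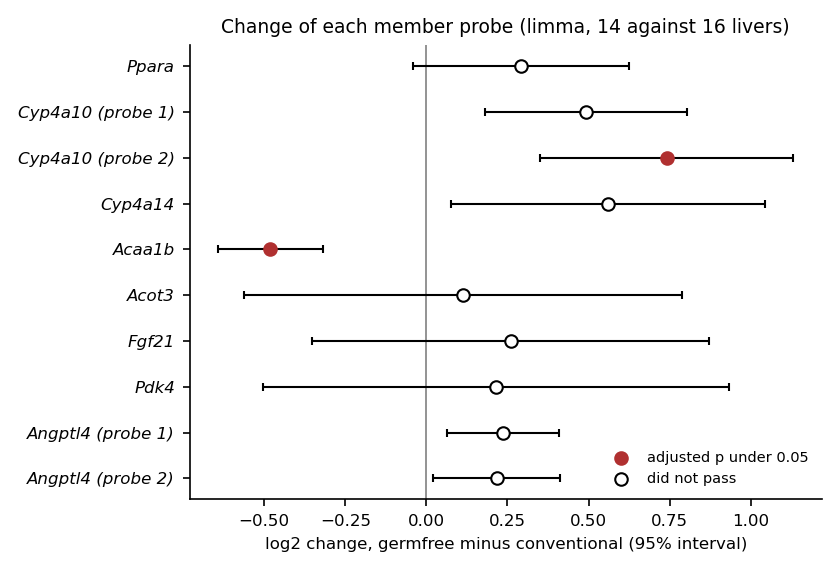
Log2 change, germfree minus conventional, of each of the 10 member probes, with its 95% interval from limma (14 against 16 livers); filled points passed an adjusted p of 0.05. The second probe of Cyp4a10 lies to the right of 0 and Acaa1b to the left, and the intervals of Ppara, Acot3, Fgf21 and Pdk4 span 0.

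Ppara was read by 1 dim probe (ILMN_2731514), with raw signals of 35.7 to 243 intensity units, above background on all 30 arrays. The probe had log2 signals from 5.47 through a median of 6.12 to 6.88 in conventional livers. In germfree livers it ran from 5.59 through 6.33 to 7.51. The groups overlapped, and 4 germfree livers lay above the highest conventional one. The means were 6.17 ± 0.39 (SD, n = 16) and 6.46 ± 0.57 (SD, n = 14), and the log2 change of 0.29 ± 0.16 (SE) did not pass (limma, adjusted p = 0.363). Its 95% interval, -0.04 to 0.63, includes both no change and a rise.

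Cyp4a10 and Cyp4a14, cytochrome P450 enzymes that hydroxylate fatty acids at the omega end, lie on the same chromosome and are among the most inducible PPARA targets in rodent liver. Cyp4a10 was measured by 2 probes. By the brighter probe (ILMN_1227348), conventional livers ran from 12.02 through a median of 13.34 to 13.84 and germfree livers from 12.79 through 13.74 to 14.32. By the dimmer probe (ILMN_1245604), conventional livers ran from 9.39 through 10.77 to 11.34 and germfree livers from 10.54 through 11.35 to 12.15. By either probe 13 of 14 germfree livers were above the conventional mean, the groups overlapped, and the low tail belonged to conventional livers. The dimmer probe rose 1.67-fold (10.57 ± 0.64 in conventional, SD, n = 16, and 11.31 ± 0.48 in germfree, SD, n = 14; log2 change 0.74 ± 0.19, SE, limma adjusted p = 0.0160). The brighter probe had a log2 change of 0.49 ± 0.15 and fell just short of the threshold (limma, adjusted p = 0.0502). Within groups both probes ranked livers alike only in part, with a Pearson r of 0.64 between them across 30 livers (rho 0.55, permutation p = 0.00024 for r). Probe sequences were not used here, so whether either probe also reads the near-identical Cyp4a31 or Cyp4a32 was not tested.

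The Cyp4a14 probe (ILMN_2691680) ran from 9.45 through 11.76 to 12.17 in conventional and from 10.63 through 12.07 to 12.67 in germfree livers. Its 3 lowest values were all from conventional livers and its 5 highest all from germfree ones. The log2 change of 0.56 ± 0.24 (SE, 14 against 16 livers) did not pass (limma, adjusted p = 0.189). The change of Cyp4a10 by its brighter probe minus that of Cyp4a14 was -0.07 ± 0.13 (SE, permutation p = 0.615, two-sided, adjusted p = 0.615 over 4 such comparisons).

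Acaa1b encodes a peroxisomal 3-ketoacyl-CoA thiolase, the last step of the peroxisomal beta-oxidation spiral, and in mice it is the fasting- and PPARA-inducible copy of a closely related pair. Its probe (ILMN_2659997) had a log2 change of opposite sign to those of the Cyp4a probes. Conventional livers ran from 12.89 through a median of 13.20 to 13.40 and germfree livers from 12.07 through 12.72 to 12.97. The ranges overlapped only at their edges: 11 of 14 germfree livers lay below the lowest conventional liver, and 12 of 16 conventional livers lay above the highest germfree one. The fall was 1.40-fold (13.16 ± 0.18, SD, n = 16, to 12.68 ± 0.25, SD, n = 14; log2 change -0.48 ± 0.08, SE, limma adjusted p = 0.000147), with all 14 germfree livers below the conventional mean. Without conventional liver 5 the log2 change was -0.48 (limma, adjusted p = 0.000258).

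Whether the Cyp4a genes and Acaa1b changed unequally was tested within each liver, with Cyp4a10 taken by its brighter probe. Such a difference can come from 1 gene of a pair alone, so it does not show that the Cyp4a gene rose. On its own, neither Cyp4a14 nor that Cyp4a10 probe passed between groups. Cyp4a10 minus Acaa1b differed between the groups by 0.97 ± 0.14 on the log2 scale (SE, permutation p = 1e-05, two-sided, the smallest that 100000 permutations can give, adjusted p = 4e-05). All 14 germfree livers were above the conventional mean of that difference, and 12 were above the highest conventional liver. Cyp4a14 minus Acaa1b differed by 1.04 ± 0.24 (permutation p = 0.00017, adjusted p = 0.000227), again with every one of the 14 germfree livers above the mean of the conventional ones. Acaa1b also differed from its paralog Acaa1a, the more constitutive peroxisomal thiolase, whose log2 change was -0.10 ± 0.07 (limma, adjusted p = 0.545). The change of Acaa1b minus that of Acaa1a was -0.38 ± 0.08 (permutation p = 6e-05, adjusted p = 0.00012), with 13 of 14 germfree livers below the conventional mean.

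Because these 2 thiolase genes changed unequally, the 250 bases before their annotated starts are shown, in the direction of transcription, from the RefSeq promoter table (GRCm38.p6). The Acaa1b window is chr9:119157094-119157343 on the minus strand and the Acaa1a window is chr9:119341044-119341293 on the plus strand. Capitals mark the letters AGGNCA, a loose form of the half-element that PPARA and RXR read, on either strand (TGGCCT is one such match, read on the opposite strand).
Acaa1b: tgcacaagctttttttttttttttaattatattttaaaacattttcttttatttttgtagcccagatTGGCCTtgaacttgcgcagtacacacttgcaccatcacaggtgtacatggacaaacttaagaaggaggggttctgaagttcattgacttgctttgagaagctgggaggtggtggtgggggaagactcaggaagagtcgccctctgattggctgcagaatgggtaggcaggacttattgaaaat
Acaa1a: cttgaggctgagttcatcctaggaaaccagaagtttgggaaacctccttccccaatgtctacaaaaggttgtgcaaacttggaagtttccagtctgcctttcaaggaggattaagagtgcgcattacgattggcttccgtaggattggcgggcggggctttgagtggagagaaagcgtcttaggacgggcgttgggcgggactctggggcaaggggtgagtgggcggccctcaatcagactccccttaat
The Acaa1b stretch holds 1 match and the Acaa1a stretch 0. AGGNCA was found in 57.2% of the 32851 windows of the table, which run from 250 bases before to 50 after a start, so a match of this kind is common. The full paired elements AGGTCANAGGTCA and AGGNCANAGGNCA, searched on both strands, were found in 0.0396% and 0.381% of windows and in 0 of the 6 members that the table holds (Ppara, Acaa1b, Acot1, Acot3, Fgf21 and Pdk4). AGGTCANAGGTCA matches are a subset of AGGNCANAGGNCA matches. These are descriptions of the letters in these windows only.

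Acot3 encodes a peroxisomal acyl-CoA thioesterase, which releases free fatty acids from their coenzyme A esters, and it stands in a cluster of related Acot genes. Its probe (ILMN_2644827) had wide ranges, from 4.45 through 6.60 to 7.94 in conventional and from 4.96 through 6.52 to 8.71 in germfree livers, 11.3-fold and 13.5-fold from lowest to highest. The lowest conventional value, that of conventional liver 7, was not above background (detection p = 0.51), so the conventional span starts at the floor. The groups overlapped almost throughout. The means were 6.48 ± 0.95 (SD, n = 16) and 6.59 ± 1.05 (SD, n = 14), and the log2 change of 0.11 ± 0.33 (SE) did not pass (limma, adjusted p = 0.909); with array weights it was -0.027. Its 95% interval, -0.56 to 0.79, is wide. A difference in change between Acot1 and Acot3 could not be fitted, since the Acot1 probe was not above background.

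Fgf21, a hormone that the fasted liver secretes, had log2 signals from 4.83 through 6.42 to 8.31 in conventional and from 5.57 through 6.59 to 8.13 in germfree livers (ILMN_2710698). The groups overlapped over nearly the whole range, with 7 germfree livers on each side of the conventional mean. The log2 change was 0.26 ± 0.30 (SE, 14 against 16 livers, limma adjusted p = 0.735). Angptl4, a secreted inhibitor of lipoprotein lipase that rises on fasting in several tissues, was measured by 2 probes. The brighter Angptl4 probe (ILMN_2759365) ran from 10.65 through 11.04 to 11.48 in conventional and from 10.94 through 11.29 to 11.56 in germfree livers, with 12 of 14 germfree livers above the conventional mean. Its log2 change of 0.24 ± 0.08 did not pass over all probes (limma, adjusted p = 0.0998), nor did that of the dimmer probe (ILMN_2769399), 0.22 ± 0.10 (limma, adjusted p = 0.212). Both Angptl4 probes gave changes of the same sign and similar size, and they correlated within groups with an r of 0.60 (rho 0.55, n = 30, permutation p = 0.00053 for r).

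Pdk4 encodes pyruvate dehydrogenase kinase 4, which holds back glucose oxidation while fat is burned. Its probe (ILMN_1259322) ran from 5.78 through 6.42 to 10.31 in conventional and from 5.58 through 6.90 to 8.57 in germfree livers. The value of 10.31 belongs to conventional liver 5, the liver with the muscle transcripts, and the next highest conventional value was 7.77. With that liver the conventional mean was 6.73 ± 1.11 (SD, n = 16) and the log2 change 0.21 ± 0.35 (SE, limma adjusted p = 0.826). Without it the mean was 6.49 ± 0.59 (SD, n = 15) and the change 0.45 ± 0.27 (limma, adjusted p = 0.416), so neither passed. The span from lowest to highest conventional liver was 23.0-fold with conventional liver 5 and 3.96-fold without it. Muscle also expresses Pdk4 strongly; the part of the muscle transcripts in this value was not tested. The liver with the next highest muscle signal, germfree 3, with a summed signal of 462 units, had a Pdk4 level of 5.96.

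**Figure D2:**
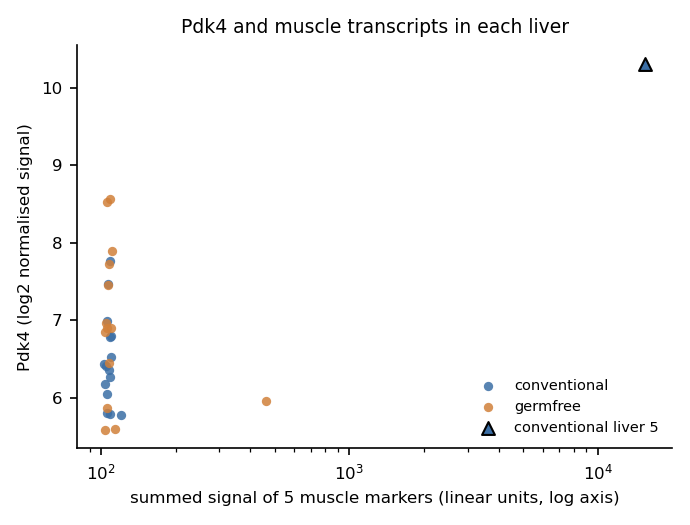
Pdk4 log2 signal in each of the 30 livers against the summed linear signal of 5 muscle marker probes (log axis). Conventional liver 5 stands alone at 15486 units with the highest Pdk4 level, 10.31; germfree 3 has a summed signal of 462 units and a Pdk4 level of 5.96.

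**Figure D3:**
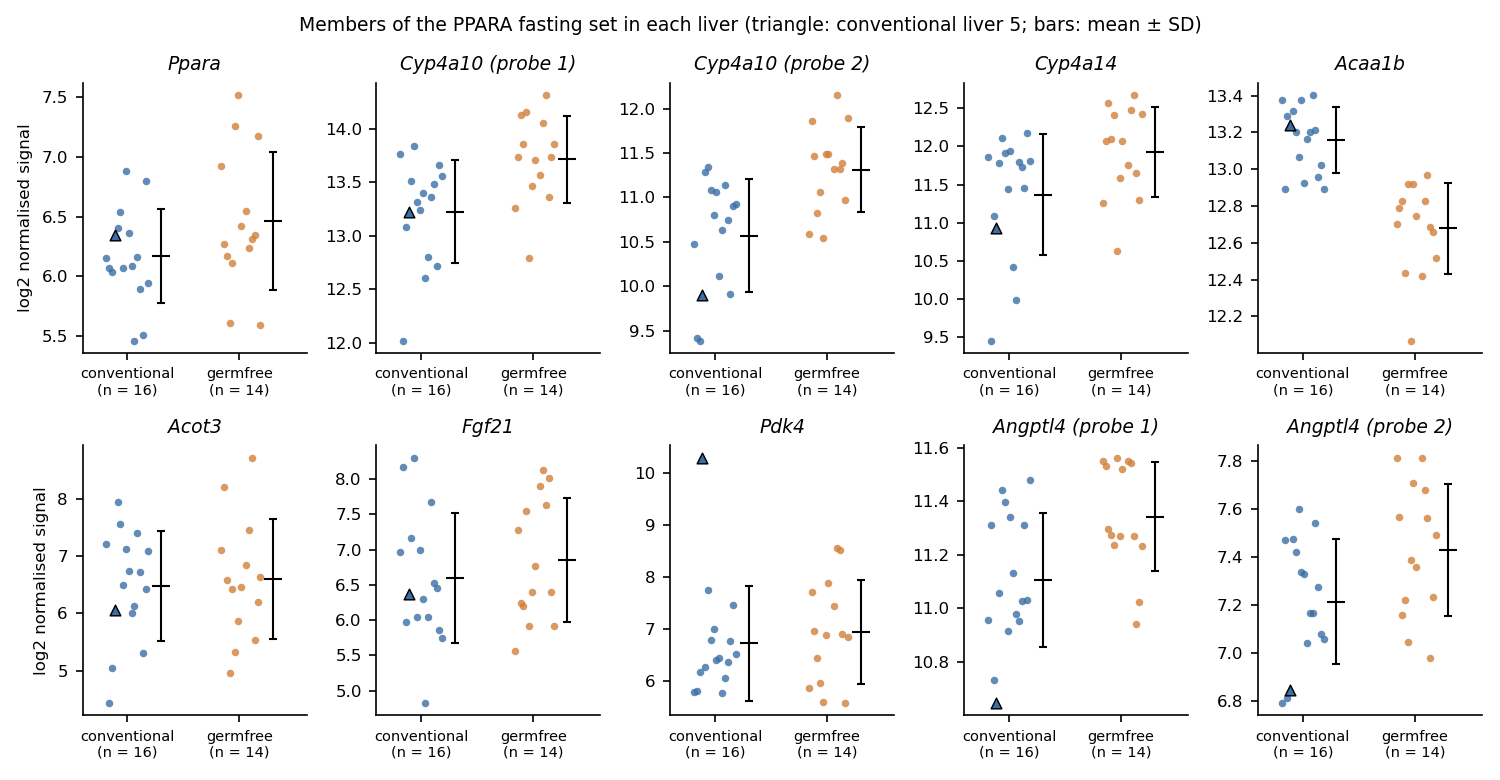
Log2 normalised signal of the 10 member probes in each liver (16 conventional, 14 germfree), with the mean and SD of each group beside the points; probe 1 of a gene is the brighter one and the triangle is conventional liver 5. The groups overlap for every probe, least for Acaa1b, and single livers spread most for Acot3, Fgf21 and Pdk4.

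The members differed greatly in how much they varied between livers of one group. The median SD within groups was 0.53 on the log2 scale over the 10 member probes, against 0.24 over all 10525 probes. The SD of Pdk4 was larger than that of 99.9% of probes, that of Acot3 larger than 99.8%, that of Fgf21 larger than 99.7% and that of Cyp4a14 larger than 99.0%. Without conventional liver 5 the SD of Pdk4 was at percentile 99.6. Acaa1b stood at percentile 32.0 and the brighter Angptl4 probe at 42.4. An SD within groups corresponds to 2.08-fold for Pdk4 and to 1.16-fold for Acaa1b.

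How far the members varied together from liver to liver was measured over log2 values centred on each group's mean, so that a difference between groups could not enter. With the brighter probe of each gene, 8 genes gave 28 pairs. The median r was 0.19, against 0.00 over the 55382600 pairs of all probes tested, and 23.0% of all pairs had an r at or above the members' median. An r of at least 0.5 was reached by 3 of 28 member pairs (10.7%) and by 2.20% of all pairs. In all, 6 pairs passed an adjusted p of 0.05 over the 28 (two-sided, 100000 permutations within groups), 5 of them positive. Ppara itself entered none of the 6: its r with the other members ran from -0.15 to 0.10.

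The tightest pair was Cyp4a10 and Cyp4a14, with r = 0.90 and rho = 0.89 over 30 livers (permutation p = 1e-05 for both, the smallest possible, adjusted p = 0.00028), and r = 0.83 without the 2 livers farthest from the median of Cyp4a10. These values are for the brighter Cyp4a10 probe, whose r with the dimmer probe of its own gene was lower, at 0.64. Cyp4a10 and Cyp4a14 were close in either group, at an r of 0.89 in conventional and 0.93 in germfree livers. Acot3 joined them: its r with Cyp4a10 was 0.67 (permutation p = 0.00013, adjusted p = 0.00182; rho 0.63, adjusted p = 0.00602), and 0.54 without 2 livers. With Cyp4a14 it was 0.60 (permutation p = 0.00047, adjusted p = 0.00439; rho 0.58, adjusted p = 0.0106), and 0.53 without 2 livers. Both pairs passed within conventional livers alone (r of 0.81 and 0.70, adjusted permutation p = 0.00294 and 0.0238). Within germfree livers they were 0.50 and 0.49 and did not pass (adjusted permutation p = 0.179 for both), and the difference between groups did not pass either (adjusted permutation p = 0.545 and 0.757). Cyp4a14 and Acot3 also lost the threshold without conventional liver 7 (r = 0.50, adjusted permutation p = 0.0625), the liver with the lowest Cyp4a14 signal and an Acot3 signal that was not above background.

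The Cyp4a10 values correlated here are those of its brighter probe, which fell just short of the threshold between groups. No correlation with other members was computed for the dimmer probe, which rose. Acaa1b fell in germfree liver, and its group-centred values correlated positively with those of Cyp4a10 and Acot3 over the 30 livers. Its r with Cyp4a10 was 0.49 (permutation p = 0.00594, adjusted p = 0.0383; rho 0.38, adjusted p = 0.160), but 0.22 without the 2 farthest livers, so that relation rests on those livers. With Acot3 the r was 0.50 (permutation p = 0.00684, adjusted p = 0.0383; rho 0.44, adjusted p = 0.0831), and 0.52 without 2 livers. Acaa1b and Angptl4 correlated negatively, with r = -0.45 (permutation p = 0.0102, adjusted p = 0.0476; rho -0.50, adjusted p = 0.0398), and -0.37 without 2 livers. Taken by group, Acaa1b and Angptl4 had r = -0.70 in conventional livers (adjusted permutation p = 0.0238) and -0.24 in germfree livers (0.565; 0.18 without 2 livers), and the difference between groups did not pass (adjusted permutation p = 0.165). Cyp4a10 and Acaa1b passed in neither group alone, with r = 0.33 and 0.67 (adjusted permutation p = 0.580 and 0.0706), nor did Acaa1b and Acot3, with r = 0.45 and 0.54 (0.370 and 0.142). Cyp4a10 and Acaa1b lost the threshold in 7 of the 30 fits that left out 1 liver (conventional 7, 11, 12 and 16 and germfree 3, 4 and 10, adjusted permutation p up to 0.341), Acaa1b and Acot3 in 8 (conventional 7, 11, 12, 13 and 16 and germfree 4, 10 and 12, up to 0.119), and Acaa1b and Angptl4 in 19 (up to 0.130). Under median scaling, where all pairs of probes have a median r of 0.42, Acaa1b and Angptl4 turned to 0.74.

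Pdk4 passed with no member over all 30 livers. Without conventional liver 5 it passed with 3: Cyp4a14 and Pdk4 had r = 0.55 (adjusted permutation p = 0.0042), Acot3 and Pdk4 had r = 0.49 (0.0364) and Cyp4a10 and Pdk4 had r = 0.44 (0.0383). With that liver the same pairs had an r of 0.33, 0.31 and 0.33. The count of pairs past the threshold was then 9 rather than 6. Fgf21 passed with no member with or without it, but did with 4 when array quality was held.

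**Figure D4:**
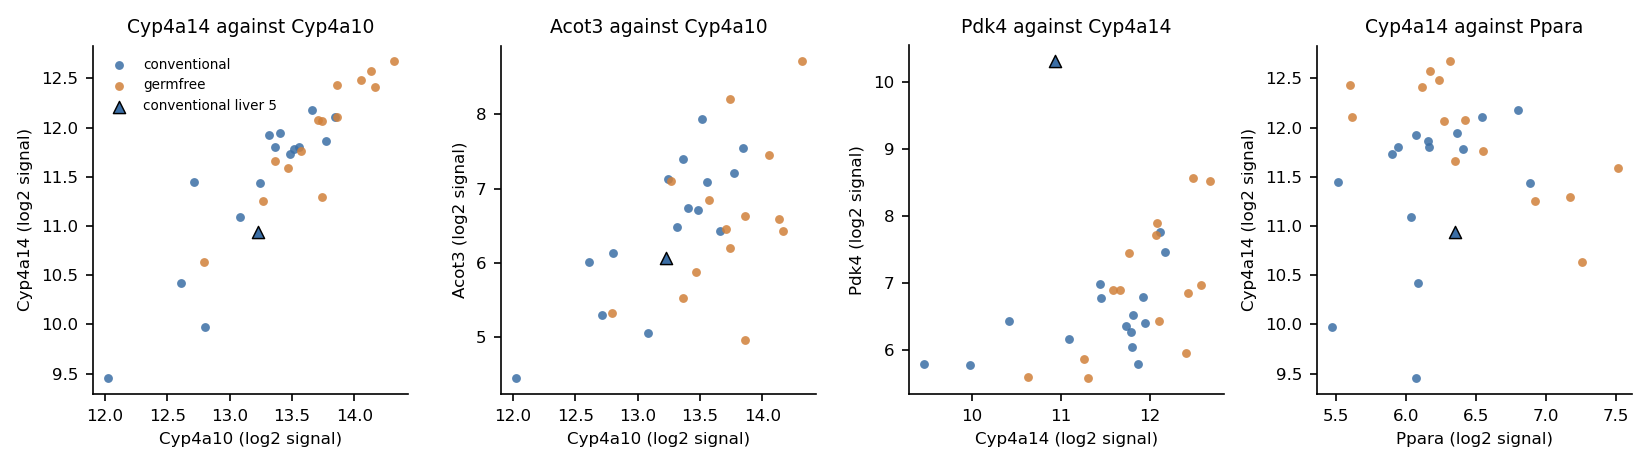
Log2 signals of 4 pairs of members in each of the 30 livers, with Cyp4a10 by its brighter probe. The triangle is conventional liver 5. Cyp4a10 and Cyp4a14 lie along a narrow band in both groups, Acot3 follows Cyp4a10 more loosely, Pdk4 follows Cyp4a14 except in conventional liver 5, and Cyp4a14 is lower where Ppara is higher in germfree livers but not in conventional ones.

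For 2 of the 28 pairs the correlation itself differed between groups, and both paired the receptor gene with a Cyp4a gene. The 2 pairs share the Ppara values, and Cyp4a10 and Cyp4a14 correlated with each other at 0.90, so the 2 are not independent. Cyp4a10 was taken by its brighter probe, and its dimmer probe was not tested for such a difference. Ppara and Cyp4a14 had r = 0.41 in conventional livers (n = 16, rho 0.43, permutation p = 0.111 and 0.101, adjusted p = 0.387 for r) and r = -0.76 in germfree livers (n = 14, rho -0.78, permutation p = 0.00201 and 0.00155, adjusted p = 0.0281 for r). The difference of Fisher z, germfree minus conventional, was -1.42 (permutation p = 0.00015, adjusted p = 0.0042 over 28 pairs). For Ppara and Cyp4a10 the values were 0.45 (rho 0.44, permutation p = 0.0785 and 0.0934) and -0.61 (rho -0.73, permutation p = 0.0197 and 0.00433, adjusted p = 0.0706 for r, which did not pass), with a difference of -1.20 (permutation p = 0.00053, adjusted p = 0.00742). Without the 2 livers farthest from the Ppara median in each group, Ppara and Cyp4a14 had an r of 0.39 and -0.71 and Ppara and Cyp4a10 of 0.47 and -0.42. Both differences passed in all 30 fits that left out 1 liver. Under median scaling neither did, at -1.23 for Ppara and Cyp4a14 (adjusted permutation p = 0.210) and -1.01 for Ppara and Cyp4a10 (0.388). Without the 3 arrays of mean signal under 160 units, Ppara and Cyp4a10 did not pass (-1.13, adjusted permutation p = 0.111) and Ppara and Cyp4a14 did (0.0476). The germfree livers with the highest Ppara signal were thus those with lower Cyp4a14, whereas conventional livers showed no relation that passed. Ppara was read here by 1 dim probe, and no second probe was there to compare.

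**Figure D5:**
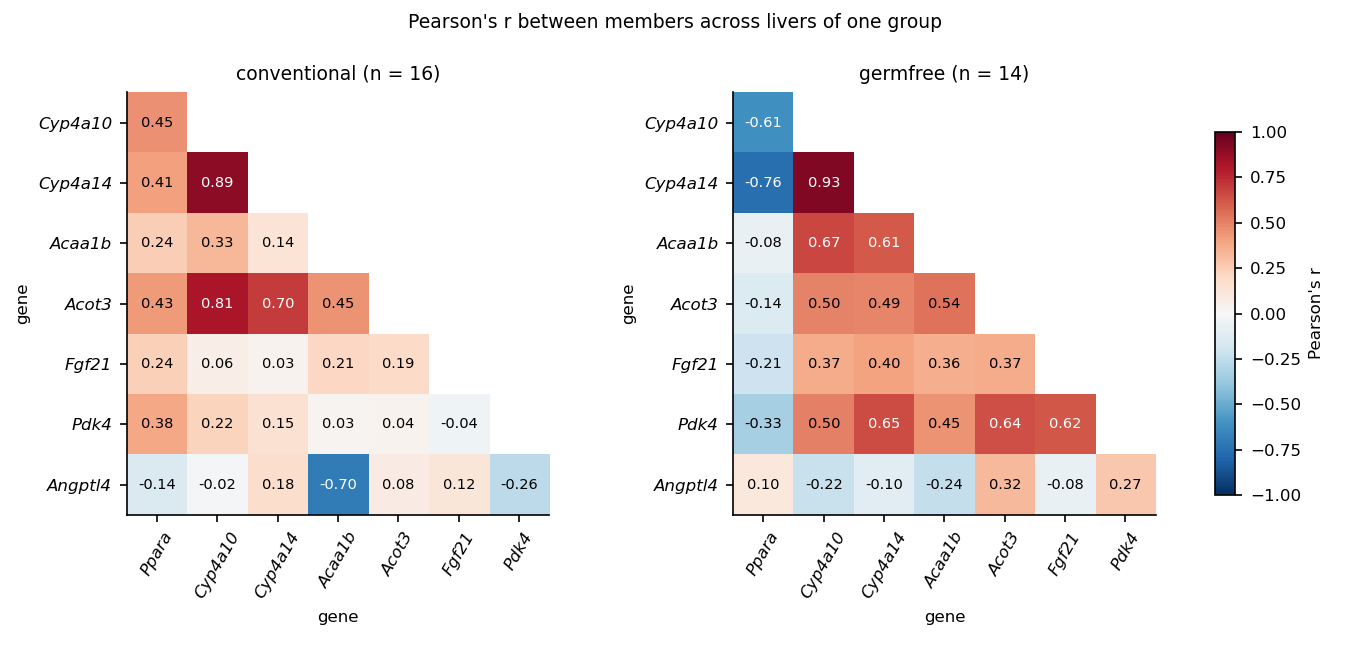
Pearson's r between the 8 measured members across the 16 conventional livers (left) and the 14 germfree livers (right), from -1 to 1 by colour, with the value in each cell. Each gene is taken by its brighter probe. The Ppara column holds values above 0 for Cyp4a10 and Cyp4a14 on the left (0.45 and 0.41) and below 0 on the right (-0.61 and -0.76), and Cyp4a10 with Cyp4a14 is at 0.89 and 0.93.

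Some members moved with a measure of array quality or with the first principal component. The share of probes detected on an array correlated with Cyp4a14 (r = 0.54 over 30 livers, permutation p = 0.00318, adjusted p = 0.0382 over 24 relations), and the first principal component of all probes within groups, which carries 15.2% of the variance, correlated with Cyp4a10 (r = -0.55, permutation p = 0.00156, adjusted p = 0.0374). The component is computed from the expression values, members included, so it is not a measure of array quality alone. With that component held, Cyp4a10 and Cyp4a14, Cyp4a10 and Acot3, and Cyp4a14 and Acot3 had an r of 0.94, 0.65 and 0.57 and passed, and these 3 were the only pairs that did. With the detected share and the mean raw signal held instead, 11 pairs passed. Fgf21 then passed with 4 members: Cyp4a10 and Fgf21 had r = 0.57 (adjusted permutation p = 0.0105, against an r of 0.19 with nothing held), Cyp4a14 and Fgf21 0.47 (0.0398), Acaa1b and Fgf21 0.47 (0.0398) and Acot3 and Fgf21 0.47 (0.0398). Cyp4a10 and Pdk4 had r = 0.44 and Cyp4a14 and Pdk4 0.44 (adjusted permutation p = 0.0404 for both), with conventional liver 5 included. Cyp4a10 and Acaa1b had r = 0.44 and did not pass (0.0518). The other 5 of the 6 pairs reported above passed in this setting too.

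Outside the members, the named genes most like each one over 30 group-centred livers were found among 7831 named genes and are descriptions, with no test. Acot3 was closest to its neighbour in the family Acot4 (r = 0.86), which is a thioesterase too, and then to the retinol dehydrogenase Rdh16 (0.76). Cyp4a10 was closest to Tlcd4 (0.82), and Cyp4a14 to Rdh16 (0.73). Ppara was closest to Crebbp (0.83), the gene of a transcriptional coactivator, Acaa1b to Cd59a (0.71) and Fgf21 to the stress-response transcription factor Atf5 (0.67). Angptl4 was closest to Sidt2 (0.72). Those of Pdk4 depended on conventional liver 5: r with Pla2g12a was 0.74 with it and 0.61 without it, with the adenine nucleotide carrier Slc25a4 0.70 and 0.30, and with the muscle-type carnitine palmitoyltransferase Cpt1b 0.68 and 0.24.

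Because Acot3 and Acot4 varied together most closely of these, 30 bases around a match to the half-element letters AGGTCA near the start of each are shown, plus strand, RefSeq GRCm38.p6, with the match on the opposite strand (TGACCT) in capitals. The stretches are chr12:84052150-84052179 for Acot3, where the match begins at base 19 counted from the start of the first of its listed windows, and chr12:84038354-84038383 for Acot4, where it begins at base -13.
Acot3: gttattagctctTGACCTtgtctgtctgct
Acot4: agccccgaagcaTGACCTttggccggtctg
The letters AGGTCA were found in 16.3% of all 32851 windows; AGGTCA matches are a subset of AGGNCA matches.

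Other PPARA targets of rodent liver formed a list of 50 genes, of which 33 were tested. Of these 0 rose and 1 fell, near the 3.28% and 2.45% of all probes. The median log2 change was -0.04, with 14 of 33 above 0 against 49.8% of all probes. An unadjusted p under 0.05 (limma) was found for 5 of the 33 and for 18.1% of all probes. No test compared the list with the Cyp4a genes. The retinol saturase Retsat fell by 0.28 ± 0.07 on the log2 scale (12.70 ± 0.20 to 12.42 ± 0.19, limma adjusted p = 0.0174). Next by p, and not past the threshold, were the fatty acid transporter Slc27a2 (0.17, adjusted p = 0.108), the mitochondrial carnitine palmitoyltransferase Cpt2 (-0.19, adjusted p = 0.109), the peroxisome proliferation gene Pex11a (-0.38, adjusted p = 0.148) and the lipid droplet gene Cidec (-0.56, adjusted p = 0.231), all by limma. The bifunctional peroxisomal enzyme Ehhadh, which acts just before the thiolase step, had a log2 change of 0.27 ± 0.15 (limma, adjusted p = 0.368).

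Among genes of PPARA's partners and relatives, 8 of 16 were tested, 2 rose and 1 fell, against 3.28% higher and 2.45% lower over all probes. The coactivator gene Ppargc1a rose by 0.71 ± 0.18 on the log2 scale (5.40 ± 0.43 to 6.10 ± 0.62, limma adjusted p = 0.0137), and the deacetylase gene Sirt1 by 0.32 ± 0.09 (5.25 ± 0.25 to 5.57 ± 0.25, limma adjusted p = 0.0285). Both probes are dim and were above background in 14 of the 16 conventional and all 14 germfree livers. The related receptor gene Pparg fell by 1.17 ± 0.16 (limma, adjusted p = 1.06e-05), with all 14 germfree livers below the conventional mean. Rxrb, Ncoa1, Hnf4a, Med1 and Crebbp did not pass, with log2 changes of -0.23, 0.15, -0.02, -0.01 and -0.01.

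Of 19 paralogs of the members 13 were tested, and beside Pparg only Cyp4f14, a fatty acid hydroxylase of another Cyp4 branch, passed, rising by 0.29 ± 0.09 (limma, adjusted p = 0.0402). Over all probes 3.28% were higher and 2.45% lower. Vnn3, a relative of the undetected Vnn1, had a log2 change of 0.18 ± 0.09 (limma, adjusted p = 0.310). Angptl6, a relative of Angptl4, had 0.21 ± 0.08 (limma, adjusted p = 0.101), and Cyp4v3 had -0.17 ± 0.09 (0.360). The Cyp4a genes Cyp4a12a and Cyp4a12b, which are also counted among the other PPARA targets above, had 0.10 and 0.28 and did not pass. Pdk1 and Pdk2 had -0.13 and 0.02, and Acot2 and Acot4 had -0.01 and -0.04.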

How the data were processed

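The authors deposited, per the file headers, mean bead intensity per probe without normalization, with a detection p-value beside every signal; the submitters' processing notes name GenomeStudio without a version. A second deposited table holds their quantile-normalized intensity and served as an alternative. A further 33 arrays in the signal table had no label and were not used.

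Signals were corrected by normexp (background from detection p-values, offset 16), quantile normalized and log2 transformed (neqc, limma 3.58.1, R 4.3.3). The offset understates changes of dim probes. Groups were compared with lmFit and eBayes, two-sided, over 10525 probes. Correlations used 100000 permutations (Python 3.11.15, numpy 2.4.6, scipy 1.17.1). Procedures were tested on simulated data. Of 24613 probes 20984 had 1 gene symbol in the platform annotation.

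The members and gene lists were chosen with earlier results of these data known. Named genes are all members, each list gene past an adjusted p of 0.05, up to 4 more per list by p, and the closest genes by r; further genes of a role were named after their values were seen. Alternatives were other background corrections, scalings, filters, probe choices, weights, variance models, array quality terms, the replicate number as a block, rank correlation, separate groups and each liver left out; the first component was added after the data were seen.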

Additional observations from a re-analysis of the deposited data

How the results depend on the processing

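Of the 10 member probes, 2 passed in the values reported, 0 under median scaling, 1 with no filter on dim probes, and 2 to 3 in the fits that left out 1 liver. Calls over all probes fell too, from 603 of 10525 to 68 of 10525 under median scaling and 433 of 24613 with no filter. The dimmer Cyp4a10 probe missed under median scaling (log2 change 0.76, limma adjusted p = 0.178) and with no filter (0.74, 0.0505), and Acaa1b under median scaling (-0.48, 0.195), each with a change about as large as reported. The brighter Cyp4a10 probe passed in 5 alternatives and in 8 fits that left out 1 liver. The log2 change of Acot3 turned to -0.027 with array weights and ran from -0.050 to 0.24 with 1 liver left out; it was below 0 without conventional liver 7 (-0.023), germfree liver 4 (-0.050) or germfree liver 14 (-0.011). All 4 differences between members kept their direction and their side of the threshold.

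Of the 28 pairs, 6 passed in the values reported. The count was 12 under median scaling, 11 with the detected share and mean raw signal held, 2 within germfree livers, 3 with the first component held, and 2 to 9 with 1 liver left out: 2 without conventional liver 7, 3 without conventional 11, 12 or 16 or germfree 4 or 10, and 9 without conventional 5. The r of Acaa1b and Angptl4 turned to 0.74 under median scaling. Pairs whose r differed between groups numbered 2, but 0 under median scaling, 1 without the 3 arrays of mean signal under 160, and 2 in every fit with 1 liver left out. The causes were not tested.

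Same-numbered livers of the 2 groups correlated at -0.17 to 0.39 in their deviations, over 0.1 in 7 of 14, so the numbers were not taken as pairs. With the replicate number as a block 3 member probes were called, adding the brighter Cyp4a10 probe (log2 change 0.49, limma adjusted p = 0.0116), and 1 pair of members passed. No paired analysis was possible for the difference in correlation between groups because blocking leaves mirrored residuals in the 2 groups.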

Other observations

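Other genes of the fasted liver, which answer to insulin, glucocorticoids, glucagon or amino acid shortage more than to PPARA, moved in both directions. Of 20 listed 14 were tested, 2 rose and 1 fell in germfree liver, against 3.28% higher and 2.45% lower over all probes. Igfbp1, an insulin-repressed binding protein, rose by 1.37 ± 0.32 on the log2 scale (8.11 ± 1.02, SD, n = 16, to 9.48 ± 0.85, SD, n = 14, limma adjusted p = 0.00618). Klb, the co-receptor through which FGF21 signals, rose by 0.43 ± 0.12 (limma, adjusted p = 0.0275). Chac1, a glutathione-degrading enzyme of the amino acid stress response, fell by 0.71 ± 0.19 (limma, adjusted p = 0.0183). The gluconeogenic gene G6pc had a log2 change of 0.66 ± 0.21 (limma, adjusted p = 0.0557), the fatty acid elongase Elovl6 of -0.44 ± 0.16 (0.118), the stress gene Ddit3 of -0.67 ± 0.25 (0.129) and Sgk1 of 0.28 ± 0.11 (0.161).

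Among the other markers, the pancreatic acinar gene Cela2a rose 2.82-fold (log2 SE 0.18, limma adjusted p = 1.31e-06) and 2 of 3 tested acinar genes did not pass. Of the 8 acinar marker probes, those for Cela1 and Amy2a5 were detected on all 30 arrays and that for Cela2a on 27. Cpa1 was detected on 2 arrays, Cela3b, Ctrb1 and Clps on 1 each, and Prss2 on 0. The source of these signals was not tested.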
